A study of Mus musculus with 14 samples.

Results

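The genes described here are the estrogen-related receptors (ERRs) Esrra, Esrrb and Esrrg, the PGC-1 coactivators Ppargc1a, Ppargc1b and Pprc1, the nuclear regulators Nrf1, Gabpa and Tfam, and the corepressor Nrip1. They are 10 of the 18193 genes that the platform annotation gives as the sole symbol of a probe set, and every probe set with a member symbol was used, which gave 29 of the 45037 probe sets that are not controls. The list was chosen by its link to Esrrg, which was itself selected on its lower intensity in PWS-IC del muscle than in WT muscle on these same arrays. Genotype differences of the members in muscle are therefore given as a description, with no p. RNA from brain tissue and from the vastus lateralis of the quadriceps was hybridised to Affymetrix mouse expression arrays, 1 array per sample and 14 in all. The groups were PWS-IC del muscle (3 arrays), WT muscle (4), PWS-IC del brain (3) and WT brain (4). PWS-IC del mice carry a deletion of the Prader-Willi syndrome imprinting center, the element that controls the paternally expressed genes of an imprinted domain, and WT mice were their wild-type littermates of matched age. All animals were F1 hybrids of FVB and B6, ages were not given in the sources used here, and no treatment was named. The deletion is carried by the whole animal and is not limited to either tissue.

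ERRs are nuclear receptors without a known natural hormone that bind DNA near genes of oxidative metabolism, and they are active when a PGC-1 coactivator is bound. In skeletal muscle Esrrg is known for its high level in oxidative fibres and Ppargc1a for its induction by exercise. Nrf1 and GABP, whose DNA-binding subunit is encoded by Gabpa, switch on nuclear genes for mitochondrial proteins, among them Tfam, which packages mitochondrial DNA and starts its transcription. Nrip1, also called RIP140, binds nuclear receptors and represses oxidative genes in muscle and fat.

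The promoters of the members were searched for 4 elements on both strands, in windows of 250 bases before to 50 bases after a transcription start (RefSeq, GRCm38.p6). The search covered 15 such windows for 9 of the 10 members, and no window of Ppargc1b was searched. The ERR element TNAAGGTCA was found in 0 of the 15, against 1.28% of all 32851 windows searched, and the cAMP response element TGACGTCA also in 0, against 1.79%. The NRF1 element GCGCANGCG was in 1 window, that of Esrra, against 6.25% of all windows. The GABP element CCGGAAGT was in 1 window, that of Tfam, against 3.89% of all windows. None of the 4 elements contains another. These 2 windows are shown because they hold an element named for another member; capitals mark the match, which starts 141 bases before the start in Esrra and 47 bases before it in Tfam. A match is a run of letters and not a measured binding site.
Esrra promoter, chr19:6921759-6922058, minus strand: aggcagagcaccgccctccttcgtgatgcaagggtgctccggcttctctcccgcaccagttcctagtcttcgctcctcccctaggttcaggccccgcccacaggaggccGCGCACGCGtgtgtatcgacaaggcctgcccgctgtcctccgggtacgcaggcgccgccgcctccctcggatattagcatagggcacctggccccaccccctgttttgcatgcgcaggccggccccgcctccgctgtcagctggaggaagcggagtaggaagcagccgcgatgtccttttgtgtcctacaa
Tfam promoter, chr10:71237995-71238294, minus strand: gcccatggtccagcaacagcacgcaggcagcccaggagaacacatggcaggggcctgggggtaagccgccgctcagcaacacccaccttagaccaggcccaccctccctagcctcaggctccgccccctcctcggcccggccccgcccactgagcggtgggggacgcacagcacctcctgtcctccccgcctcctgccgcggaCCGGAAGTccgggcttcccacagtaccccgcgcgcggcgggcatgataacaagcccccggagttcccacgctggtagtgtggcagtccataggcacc

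The values are array intensities taken as log2(intensity + 16), called log2 level below, and a log2 difference is PWS-IC del minus WT unless said otherwise. Each probe set has its own scale, so levels are compared between samples of 1 probe set and never between genes. Ndn, a paternally expressed gene of the domain, went with the labels. On its brightest probe set its log2 level lay at 7.69 to 8.71 in PWS-IC del brain against 12.04 to 12.79 in WT brain, and at 7.47 to 7.73 in PWS-IC del muscle against 8.69 to 8.99 in WT muscle. Snrpn, whose promoter lies at the center, lay at 5.03 to 6.48 in PWS-IC del brain against 10.29 to 10.64 in WT brain, and at 6.37 to 6.97 in PWS-IC del muscle against 7.07 to 7.16 in WT muscle. Neuron markers summed to intensities of 276 to 1422 over the muscle arrays and 43425 to 45565 over the brain arrays, and skeletal muscle markers to 85922 to 89333 over the muscle arrays. In brain these 6 skeletal muscle markers summed to 722 to 1109 in PWS-IC del arrays, against 8773, 1068, 5457 and 960 in WT replicates 1 to 4, so WT brain replicates 1 and 3 carried more of them than the other brain arrays. The 5 cerebellar markers summed to 122092 in PWS-IC del brain replicate 2 and to 1092 to 10613 in the other brain arrays. In muscle they summed to 720 to 806 in PWS-IC del arrays and 762 to 871 in WT arrays. For brain, differences without WT replicates 1 and 2, or without 1 and 3, stand beside several of the results. The gene lists below were not recomputed without PWS-IC del brain replicate 2. Fewer cells of a type and less RNA per cell cannot be told apart in such bulk samples.

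Esrrg was lower in mutant muscle on all 3 of its probe sets, with no overlap between the groups on any of them. On 1455267_at, its brightest, the log2 level was 7.9955, 7.89 and 7.65 in PWS-IC del muscle, against 8.80, 8.62, 9.01 and 8.73 in WT muscle. The highest mutant array thus lay below the lowest WT array, and the log2 difference was -0.94 ± 0.12 (SE, n = 3 and 4). On 1457896_at the log2 levels were 6.37, 6.05 and 6.12 in PWS-IC del muscle, against 6.97, 6.77, 6.93 and 7.01 in WT muscle, a log2 difference of -0.74 ± 0.11 (SE). The third, 1421747_at, had log2 levels of 6.08, 6.05 and 6.34 in PWS-IC del muscle, against 6.47, 6.47, 6.46 and 6.57 in WT muscle, a log2 difference of -0.34 ± 0.10 (SE). The probe sets differ in size of the difference and share its direction.

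Over all 33778 probe sets tested in muscle, 0.142% were called at an adjusted p below 0.05 in limma, a linear model that pools variance over probe sets. Esrrg 1455267_at and 1457896_at were the 2 called ones among the 29 member probe sets. These calls are the values that chose the members and support nothing further. When each of the 7 muscle arrays was left out in turn, both calls held without WT replicate 2 and both ended without any of the other 6 arrays, with log2 differences between -1.02 and -0.84 for 1455267_at and between -0.83 and -0.67 for 1457896_at. Of the muscle arrays, WT replicate 2 had the highest neuron marker sum (1422) and the lowest slow fibre marker sum (5901).

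In brain, Esrrg did not separate the genotypes. On 1455267_at the log2 level was 9.97, 10.47 and 9.58 in PWS-IC del brain, against 9.43, 9.54, 10.06 and 9.88 in WT brain. The groups overlapped, with a log2 difference of 0.28 ± 0.23 (SE) and a limma adjusted p of 0.639. The difference was 0.03 without WT brain replicates 1 and 2 and 0.30 without replicates 1 and 3. Without PWS-IC del brain replicate 2, which carried the cerebellar markers, the difference was 0.04. The difference of 1421747_at was -0.12 ± 0.13 (adjusted p = 0.694). On 1457896_at, too dim to be tested in brain, log2 levels were 5.50, 5.98 and 5.37 in PWS-IC del brain, against 7.89, 6.19, 5.78 and 5.46 in WT brain, where WT replicate 1 stood apart. On 1455267_at the group means ran from PWS-IC del brain (10.0041 ± 0.45, SD) through WT brain (9.73 ± 0.29) and WT muscle (8.79 ± 0.16) to PWS-IC del muscle (7.85 ± 0.18). Only the 2 brain groups, neighbours in this order, overlapped. Whether the genotype difference of Esrrg differs between the tissues was not tested.

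**Figure D1:**
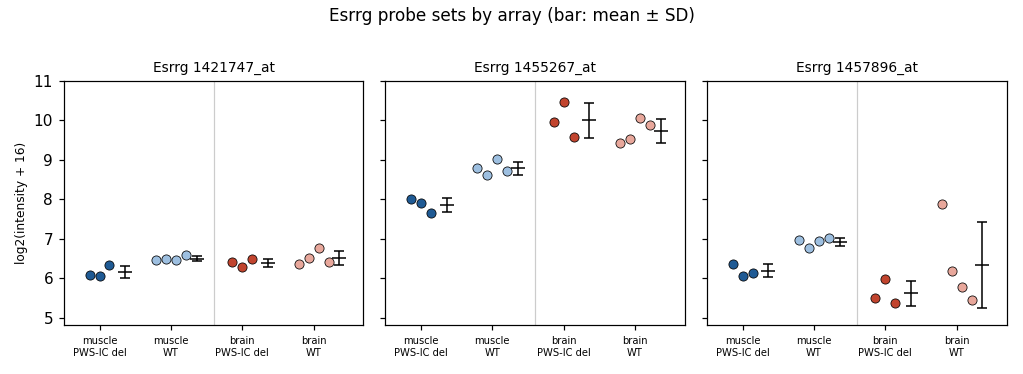
Log2 level, log2(intensity + 16), of the 3 Esrrg probe sets on each array (points) in PWS-IC del and WT muscle and PWS-IC del and WT brain, with the mean ± SD of each group beside its points. In muscle all PWS-IC del arrays lie below all WT arrays in each panel, while the brain groups overlap.

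The other ERRs had smaller differences in muscle. Esrra, the ERR found widely in oxidative tissues, had log2 levels of 9.83, 9.64 and 9.62 in PWS-IC del muscle on 1460652_at, against 9.84, 9.63, 9.87 and 9.71 in WT muscle, a log2 difference of -0.07 ± 0.10 (SE) with overlapping groups. On its other probe set, 1442864_at, the log2 difference was -0.14 ± 0.13. Esrrb, best known for its role in mouse embryonic stem cells, had its largest difference on 1436926_at. There the log2 levels were 7.08, 6.69 and 6.70 in PWS-IC del muscle, against 7.13, 7.08, 7.43 and 7.17 in WT muscle, a log2 difference of -0.38 ± 0.13 (SE). A single mutant array, replicate 1, reached the lowest WT array there. The other Esrrb probe sets, 1441921_x_at and 1422986_at, were at -0.18 and -0.01, and probe sets with the ending x_at can also match other transcripts.

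In brain no ERR probe set passed the test. Esrra 1460652_at had log2 levels of 9.44, 9.69 and 9.61 in PWS-IC del brain, against 9.41, 9.48, 9.28 and 9.44 in WT brain, a log2 difference of 0.18 ± 0.11 (SE, adjusted p = 0.614). The second Esrra probe set, 1442864_at, ran the other way at -0.50 ± 0.25 (adjusted p = 0.614), with 8.45 in WT brain replicate 1 against 7.29 to 7.79 in the other WT brain arrays. Without WT brain replicates 1 and 3 this difference was -0.27, and without replicates 1 and 2 it was -0.14. The 3 Esrrb probe sets lay between -0.27 and 0.13 in brain, with adjusted p values of 0.614 to 0.974. Esrrb 1436926_at, at 0.13 with all arrays, was at -0.15 without WT brain replicates 1 and 2 and at 0.09 without replicates 1 and 3. Esrrb 1441921_x_at, at -0.27 with all arrays, was at -0.25 and -0.09 in the same order.

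Of the PGC-1 coactivators, Ppargc1a and Ppargc1b had negative differences in mutant muscle and Pprc1 did not separate the groups. On Ppargc1a 1456395_at the log2 level was 9.21, 9.28 and 9.27 in PWS-IC del muscle, against 9.64, 9.53, 9.57 and 9.66 in WT muscle, a log2 difference of -0.35 ± 0.08 (SE). On 1437751_at it was 9.26, 9.33 and 9.24 in PWS-IC del muscle, against 9.69, 9.53, 9.60 and 9.59 in WT muscle, a log2 difference of -0.32 ± 0.08 (SE). On both probe sets the arrays of a genotype lay close together and the groups did not overlap. The other 3 Ppargc1a probe sets gave smaller differences with overlapping groups, at -0.14 ± 0.12 for 1460336_at, -0.09 ± 0.09 for 1434099_at and -0.08 ± 0.08 for 1434100_x_at. The last 2 have the same source accession in the platform annotation, as do the 2 Gabpa probe sets and 2 pairs among those of Nrip1, so such pairs are not independent. The 5 probe sets of Ppargc1a thus share a negative sign and differ in size by more than their standard errors.

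Ppargc1b, a coactivator related to Ppargc1a that also binds ERRs, had log2 levels of 10.01, 10.20 and 9.79 in PWS-IC del muscle, against 10.59, 10.29, 10.34 and 10.27 in WT muscle. The groups did not overlap and the log2 difference was -0.37 ± 0.12 (SE). Pprc1, a family member induced by growth signals, had log2 levels of 9.08, 8.85 and 8.60 in PWS-IC del muscle, against 8.84, 8.92, 8.90 and 8.92 in WT muscle. The mutant arrays spread on both sides of the WT arrays, with a log2 difference of -0.05 ± 0.12 (SE). It turned to 0.07 when PWS-IC del replicate 3 was left out.

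None of the coactivators differed by more than the spread of the arrays in brain. The Ppargc1a probe set 1456395_at had log2 levels of 10.15, 10.57 and 9.9967 in PWS-IC del brain, against 10.39, 10.47, 10.27 and 9.96 in WT brain, a log2 difference of -0.03 ± 0.18 (SE, adjusted p = 0.937). Without PWS-IC del brain replicate 2 this difference was -0.20. The other Ppargc1a probe sets lay between 0.05 and 0.09 with all arrays. Ppargc1b had log2 levels of 10.05, 10.52 and 10.02 in PWS-IC del brain, against 10.65, 10.43, 9.84 and 9.81 in WT brain, a log2 difference of 0.01 ± 0.24 (SE, adjusted p = 0.983). WT brain replicates 1 and 2 were the high ones in the WT group, and without them the difference was 0.37. Without replicates 1 and 3 it was 0.08. Pprc1 was at 0.05 ± 0.12 (adjusted p = 0.853).

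**Figure D2:**
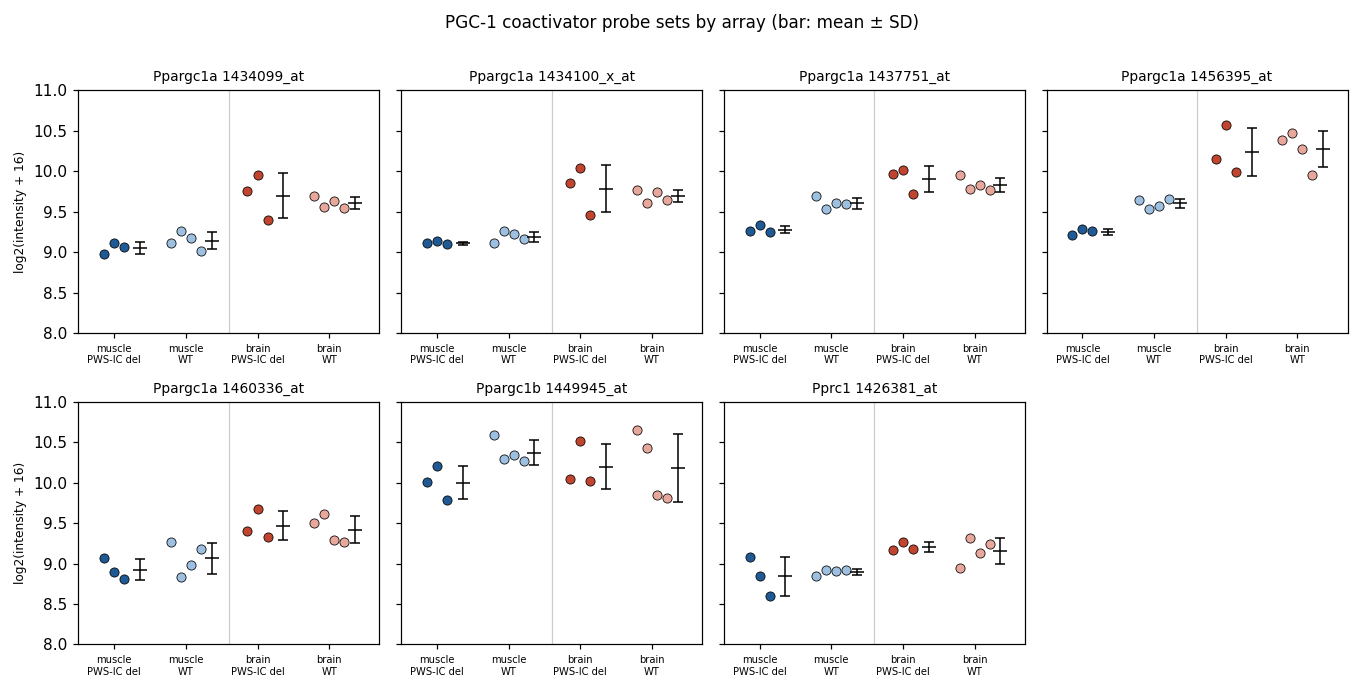
Log2 level, log2(intensity + 16), of the 5 Ppargc1a probe sets and the probe sets of Ppargc1b and Pprc1 on each array (points), with the mean ± SD of each group. In muscle the PWS-IC del and WT arrays do not overlap for Ppargc1a 1437751_at and 1456395_at and for Ppargc1b.

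Nrf1, Gabpa and Tfam differed little between genotypes in muscle. Their 8 probe sets lay between -0.16 and 0.14 there. The largest was Tfam 1456215_at, with log2 levels of 8.03, 8.15 and 8.18 in PWS-IC del muscle, against 8.41, 8.20, 8.27 and 8.23 in WT muscle. The groups did not overlap, though they lay close, and the log2 difference was -0.16 ± 0.09 (SE). On Tfam 1448224_at all WT muscle arrays stood at 10.08, against 10.11, 10.01 and 10.04 in PWS-IC del muscle, a log2 difference of -0.03 ± 0.08 (SE). Gabpa was at 0.01 ± 0.09 on 1450664_at and 0.02 ± 0.15 on 1450665_at.

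In brain both Gabpa and both Tfam probe sets had positive differences, none past the threshold. On Gabpa 1450665_at the log2 level was 8.12, 8.13 and 7.90 in PWS-IC del brain, against 7.52, 7.45, 7.87 and 7.93 in WT brain, a log2 difference of 0.36 ± 0.15 (SE, adjusted p = 0.614). The lower WT arrays were replicates 1 and 2, and without them the difference was 0.15. Without replicates 1 and 3 it was 0.36. On 1450664_at the difference was 0.25 ± 0.12 (adjusted p = 0.614). Tfam 1448224_at had log2 levels of 10.19, 10.23 and 10.07 in PWS-IC del brain, against 9.63, 9.88, 9.97 and 10.14 in WT brain, a log2 difference of 0.26 ± 0.14 (SE, adjusted p = 0.614). This difference was 0.11 without WT brain replicates 1 and 2 and 0.15 without replicates 1 and 3. Tfam 1456215_at was at 0.15 ± 0.17 (adjusted p = 0.693), at -0.06 without WT brain replicates 1 and 2 and at 0.07 without replicates 1 and 3.

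The 4 probe sets of Nrf1 did not go the same way in brain. On 1424787_a_at, its brightest, the log2 level was 7.28, 7.19 and 7.16 in PWS-IC del brain, against 7.03, 7.09, 7.02 and 7.13 in WT brain, a log2 difference of 0.15 ± 0.09 (SE, adjusted p = 0.614). On 1434627_at it was 6.83, 6.89 and 6.75 in PWS-IC del brain, against 7.75, 7.11, 7.09 and 6.96 in WT brain, a log2 difference of -0.40 ± 0.19 (SE, adjusted p = 0.614). The groups did not overlap on either probe set, higher in mutants on the first and lower on the second. WT replicate 1 was the high array on 1434627_at, and the difference was -0.20 without WT brain replicates 1 and 2 and -0.21 without replicates 1 and 3. On 1445914_at the difference was -0.52 ± 0.32 (adjusted p = 0.614), with 8.38 in WT brain replicate 1. It was -0.06 without WT brain replicates 1 and 2 and -0.20 without replicates 1 and 3. The fourth, 1420978_at, was at 0.02 ± 0.14.

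Nrip1, the corepressor, had 2 probe sets that were higher in all mutant arrays than in all WT arrays in each tissue and 4 that were not. On 1434384_at the log2 level was 10.77, 10.36 and 10.42 in PWS-IC del muscle, against 9.96, 10.20, 10.19 and 10.15 in WT muscle, a log2 difference of 0.39 ± 0.12 (SE). In brain this probe set was at 10.59, 10.67 and 10.67 in PWS-IC del arrays, against 10.16, 10.45, 10.14 and 10.41 in WT arrays, a log2 difference of 0.35 ± 0.12 (SE). The groups were apart in both tissues, and in brain the limma p was 0.0176 before adjustment and 0.614 after it.

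On 1447211_at the log2 level of Nrip1 was 8.52, 8.06 and 8.07 in PWS-IC del muscle, against 7.36, 7.51, 7.52 and 8.03 in WT muscle, a log2 difference of 0.61 ± 0.18 (SE). In brain it was 8.03, 8.07 and 7.98 in PWS-IC del arrays, against 7.14, 7.30, 7.75 and 7.90 in WT arrays, a log2 difference of 0.51 ± 0.19 (SE). The mutant arrays again lay above all WT arrays, in both tissues with the nearest WT array close by. The limma p in brain was 0.0274 before adjustment and 0.614 after it. Without WT brain replicates 1 and 2 the brain difference was 0.21 on this probe set and 0.37 on 1434384_at, and without replicates 1 and 3 it was 0.43 and 0.21 in the same order.

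The other Nrip1 probe sets had overlapping groups in both tissues. On 1449089_at the log2 level was 10.38, 9.95 and 10.11 in PWS-IC del muscle, against 10.45, 10.07, 10.44 and 10.20 in WT muscle, a log2 difference of -0.14 ± 0.14 (SE). Its brain difference was -0.15 ± 0.20 (adjusted p = 0.732). For 1418469_at the differences were -0.18 in muscle and -0.20 in brain, for 1432603_at 0.03 and -0.21, and for 1454295_at -0.38 and -0.41. The probe sets of Nrip1 therefore disagreed in sign with all arrays in the fit. In brain the disagreement remained without WT replicates 1 and 2, with fewer negative probe sets. There 1418469_at was at 0.06, 1449089_at at 0.12 and 1454295_at at 0.09, which left 1432603_at as the only negative one, at -0.27. Without WT brain replicates 1 and 3 these 4 stayed negative, between -0.24 and -0.11.

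**Figure D3:**
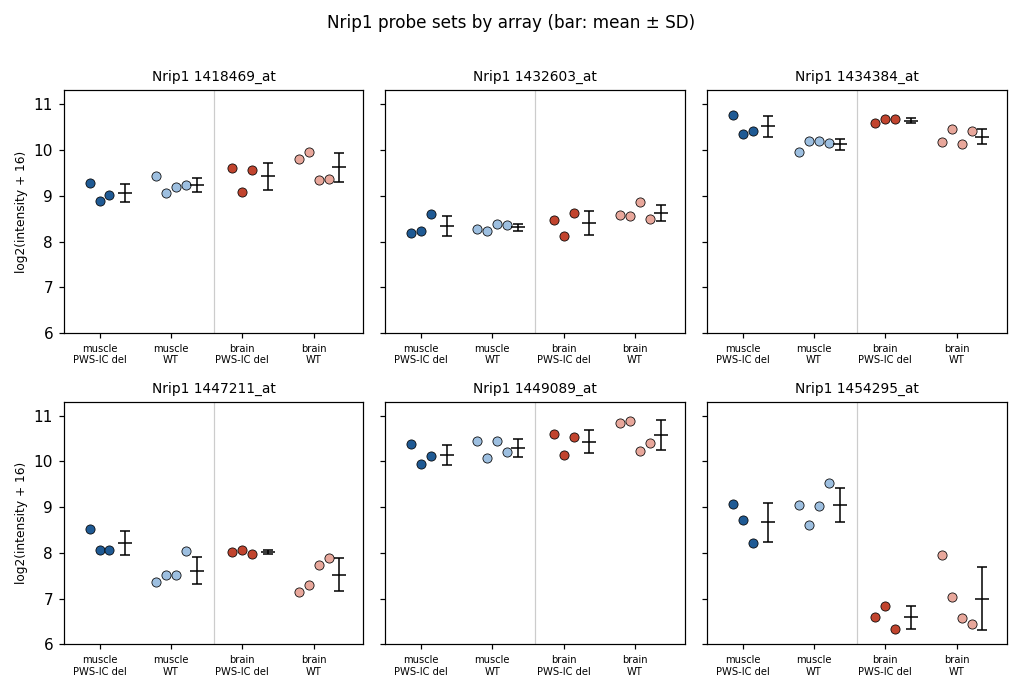
Log2 level, log2(intensity + 16), of the 6 Nrip1 probe sets on each array (points), with the mean ± SD of each group. On 1434384_at and 1447211_at all PWS-IC del arrays lie above all WT arrays in brain and in muscle, and on the other 4 probe sets the groups overlap.

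Counted over the members, 0 of 28 tested probe sets passed in brain, where 0.0711% of 33778 probe sets did, and 3 member probe sets had an unadjusted limma p under 0.05, as did 6.35% of all probe sets. In brain 18 differences were positive and 10 negative, with a median log2 difference of 0.05 against 0.02 over all probe sets. Groups did not overlap for 3 member probe sets that were higher (10.7%, against 4.48% of all probe sets) and for 1 that was lower (3.57%, against 3.39%). In muscle 8 differences were positive and 21 negative, with a median of -0.09 against -0.0002 over all probe sets. The muscle groups did not overlap for 2 member probe sets that were higher (6.9%, against 5.13% of all) and for 7 that were lower (24.1%, against 6.76%). The lower ones were the 3 of Esrrg, 2 of Ppargc1a and those of Ppargc1b and Tfam named above. The muscle counts rest on the comparison that chose the members, and the probe sets of a gene are not independent.

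**Figure D4:**
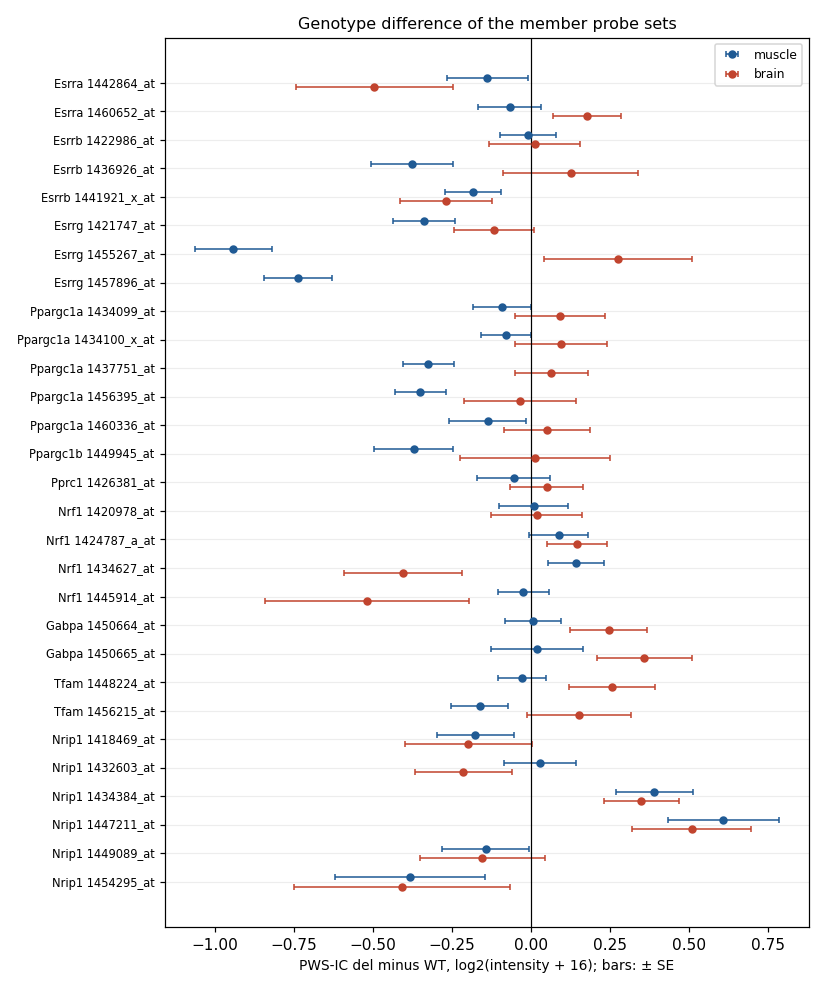
Log2 difference between PWS-IC del and WT, with bars of ± SE, for each member probe set tested in muscle and in brain. Esrrg 1455267_at and 1457896_at lie furthest left in muscle, at -0.94 and -0.74, and Nrip1 1434384_at and 1447211_at lie right of 0 in both tissues. Esrrg 1457896_at was not tested in brain and has no brain point.

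The pathway around these genes was followed through 4 lists, each gene by its brightest probe set. Over all probe sets, 12.1% in muscle and 6.35% in brain had an unadjusted limma p under 0.05, against which the counts below are to be read. Among regulators of Ppargc1a, such as kinases, deacetylases and transcription factors, 0 of 15 tested genes passed in muscle with limma (2 at an unadjusted p under 0.05), with 6 positive and 9 negative differences. The largest was that of Prkaa2, a catalytic subunit of the energy sensor AMPK, at 12.32 ± 0.03 in PWS-IC del muscle and 12.69 ± 0.15 in WT muscle (log2 level, SD), a log2 difference of -0.38 ± 0.10 (SE). Camkk2, an upstream kinase of AMPK, was at 0.25 ± 0.24, and Med1, a Mediator subunit that PGC-1alpha recruits, at -0.24 ± 0.10. The groups did not overlap for Prkaa2 and Med1. In brain 0 of 16 passed (0 at an unadjusted p under 0.05), with 8 positive and 8 negative differences. These became 13 and 3 without WT brain replicates 1 and 2, and stayed 8 and 8 without replicates 1 and 3. Sirt1, the deacetylase of PGC-1alpha, was at 0.26 ± 0.12, Yy1, a transcription factor that works with it, at 0.19 ± 0.12 and Prkaa1, the other catalytic subunit of AMPK, at 0.24 ± 0.30 (adjusted p = 0.614, 0.614 and 0.728).

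Among 16 listed target genes of ERRs and PGC-1, 14 were measured and 0 of 14 passed in muscle (2 at an unadjusted p under 0.05). There 7 differences were positive and 7 negative, with a median of -0.01. Vegfa, the angiogenic growth factor, was at 10.58 ± 0.09 in PWS-IC del muscle and 10.96 ± 0.04 in WT muscle (log2 level, SD), a log2 difference of -0.38 ± 0.08 (SE) without overlap. Fabp3, which carries fatty acids in oxidative muscle, was at 12.52 ± 0.35 in PWS-IC del muscle and 13.28 ± 0.46 in WT muscle, a log2 difference of -0.76 ± 0.25 (SE). Pdk4, a kinase that restrains pyruvate oxidation, was at -0.29 ± 0.34. Idh3a, a subunit of a citric acid cycle enzyme, was the one gene of the list higher without overlap, at 0.09 ± 0.08, and was picked out after its value was seen. In brain 0 of 14 target genes passed (0 at an unadjusted p under 0.05), with 9 positive and 5 negative. These became 4 and 10 without WT brain replicates 1 and 2, and 10 and 4 without replicates 1 and 3. Pdk4 was at 0.37 ± 0.18, Fabp3 at 0.28 ± 0.15 and the mitochondrial creatine kinase Ckmt2 at -0.46 ± 0.31 there (adjusted p = 0.614 for each).

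Genes that copy and transcribe mitochondrial DNA, the step at which Tfam acts, had 14 positive and 1 negative differences in mutant brain. Of all probe sets in brain, 53.5% had positive ones. The median log2 difference of the listed genes was 0.19, against 0.02 over all probe sets, and 0 of 15 passed (3 at an unadjusted p under 0.05). Without WT brain replicates 1 and 2 there were again 14 positive and 1 negative differences with a median of 0.09, and without replicates 1 and 3 there were 12 and 3 with a median of 0.13, against 0.01 over all probe sets in both cases. The elongation factor Tefm was at 8.37 ± 0.19 in PWS-IC del brain and 7.95 ± 0.25 in WT brain (log2 level, SD), a log2 difference of 0.42 ± 0.16 (SE, adjusted p = 0.614). Mterf1a, a termination factor, was at 0.38 ± 0.13 and Mterf4, which serves mitochondrial ribosome assembly, at 0.31 ± 0.12 (adjusted p = 0.614 for both), both without overlap. Of the 15 genes, 4 were higher in mutant brain without overlap and 0 lower, where 4.48% and 3.39% of all probe sets were. In muscle 0 of 15 passed (1 at an unadjusted p under 0.05), with 9 positive and 6 negative differences and a median of 0.03. Mterf3, which restrains this transcription, was at 0.23 ± 0.09, Mterf1a at 0.16 ± 0.14 and Tefm at 0.15 ± 0.08 there. Partner nuclear receptors that share DNA sites or coactivators with the members also had no calls, with 0 of 8 in muscle (1 at an unadjusted p under 0.05) and 0 of 7 in brain (0 at an unadjusted p under 0.05). Ppara, a receptor for fatty acids, was at -0.37 ± 0.12 in muscle and -0.27 ± 0.12 in brain (adjusted p = 0.614 in brain). Pparg, the receptor that drives fat cells, was at 0.58 ± 0.60 in muscle and Rxrg, a retinoid X receptor, at 0.20 ± 0.09 in muscle and -0.47 ± 0.35 in brain. Rxra was at 0.22 ± 0.20 in brain.

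Cell type markers were set beside the muscle values. Slow fibre markers (9 of 9 measured) summed to intensities of 31139, 11856 and 15385 in PWS-IC del muscle, against 23257, 5901, 33049 and 30565 in WT muscle, so the groups overlapped. Of these markers 5 of 9 had positive differences, and Casq2 and Pln, which act in calcium handling, were lower in PWS-IC del muscle without overlap. Casq2 had log2 levels of 8.97, 8.29 and 8.32 in PWS-IC del muscle, against 9.85, 9.23, 9.64 and 9.51 in WT muscle, a log2 difference of -1.03 ± 0.20 (SE). Pln had 8.10, 7.85 and 7.93 in PWS-IC del muscle, against 8.43, 8.23, 8.25 and 8.49 in WT muscle, a log2 difference of -0.39 ± 0.10 (SE). These 2 were picked out after their values were seen and go the same way as Esrrg. The slow myosin genes Myh7, Myl2 and Myl3 were at 0.25 ± 0.72, 0.07 ± 0.69 and -0.78 ± 0.47 (SE), each with overlapping groups. Endothelial markers (8 of 8 measured) summed to 3923, 3533 and 2809 in PWS-IC del muscle, against 4487, 4950, 4297 and 3811 in WT muscle. Their differences were negative for 8 of 8, with a median of -0.38, while 49.9% of all probe sets had positive ones. These sums overlap in 1 array, and in muscle they go the same way as Esrrg, Ppargc1a and Vegfa. Fat cell markers (4 of 6 measured) summed to 9604, 14822 and 2728 in PWS-IC del muscle, against 2387, 10762, 4087 and 2953 in WT muscle, and macrophage markers (6 of 6 measured) to 4217 to 5780, against 3847 to 4711. No marker was at 0 on any array. The part of slow fibre, endothelial, fat and macrophage RNA in the members' differences was not tested.

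In brain, marker sums differed between arrays, and some of them went with the values of several member probe sets. Striatal neuron markers (6 of 8 measured) summed to 8149, 4432 and 8573 in PWS-IC del brain, against 18946, 13149, 4456 and 10916 in WT brain, and choroid plexus markers (4 of 4 measured) to 8758 to 15970, against 3871, 4244, 14895 and 16505. WT replicates 1 and 2, with the 2 highest striatal sums and the 2 lowest choroid plexus sums, were also the 2 lowest WT arrays for Tfam 1448224_at, for Gabpa 1450665_at and for Nrip1 1447211_at. Other probe sets of these genes did not follow. On Gabpa 1450664_at WT replicate 1 was the highest WT brain array (9.11), and on Nrip1 1434384_at WT replicate 2 was (10.45). Endothelial markers summed to 1559 to 1815 in PWS-IC del brain and 1766 to 2594 in WT brain, with 8 of 8 differences negative as in muscle and a median of -0.35. Of all probe sets in brain, 53.5% had positive differences. Esrrg 1455267_at was at 0.28 in brain, Ppargc1a 1456395_at at -0.03 and Vegfa at 0.002. The part of regional makeup in the brain differences of the members and lists was not tested.

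Muscle and brain were then compared within each genotype, as muscle minus brain. How arrays were normalised to each other is not given in the sources used here, and the median of all probe sets was lower in muscle, at -0.53 in WT mice and -0.50 in PWS-IC del mice on the log2 scale. Of the 29 member probe sets, 26 lay above this median in WT mice, and 21 of the 28 tested in PWS-IC del mice. In WT mice 4 member probe sets were called higher in muscle and 11 lower, where 18.3% and 58.1% of all probe sets were. In PWS-IC del mice 3 were called higher and 9 lower, where 18.5% and 56.4% of all probe sets were. The direction of most of them depends on the scaling: after quantile normalization the split of member calls into higher and lower was 22 and 0 in WT mice and 21 and 1 in PWS-IC del mice, and after median centring it was 19 and 0 in WT mice and 17 and 2 in PWS-IC del mice. Over all probe sets the split was 6181 and 19620 in WT mice as deposited, 13993 and 10554 after quantile normalization and 13705 and 10397 after median centring. The mutants' split was 6254 and 19052, 14353 and 10914, and 13852 and 11290 in the same order.

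A few members were higher in muscle under each of the 3 scalings. In WT mice these were Esrra 1460652_at, Nrf1 1424787_a_at, Gabpa 1450664_at and Nrip1 1454295_at. Esrra had log2 levels of 9.84, 9.63, 9.87 and 9.71 in WT muscle, against 9.41, 9.48, 9.28 and 9.44 in WT brain, a log2 difference of 0.36 ± 0.09 (SE, limma adjusted p = 0.00606). Gabpa had 9.64, 9.61, 9.69 and 9.60 in WT muscle, against 9.11, 9.03, 9.05 and 9.09 in WT brain, a log2 difference of 0.57 ± 0.08 (SE, adjusted p = 1.05e-04). The WT muscle and brain arrays did not overlap on either of these probe sets, with the wider gap for Gabpa. They overlapped on the other probe set of each gene. Esrra 1442864_at was at -0.36 ± 0.22 in WT mice (adjusted p = 0.150) and Gabpa 1450665_at at 0.28 ± 0.14 (adjusted p = 0.101). In PWS-IC del mice Esrra 1460652_at was at 0.12 ± 0.12 (adjusted p = 0.392). Gabpa 1450664_at was at 0.33 ± 0.14 there (adjusted p = 0.0610), without overlap, and neither was called. Nrf1 1424787_a_at was at 0.49 ± 0.09 in WT mice (adjusted p = 5.23e-04) and at 0.44 ± 0.11 in PWS-IC del mice (adjusted p = 0.00648). In PWS-IC del mice the probe sets called higher under each scaling were this one, Nrf1 1434627_at at 0.39 ± 0.10 (adjusted p = 0.00771) and Nrip1 1454295_at.

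Nrip1 1454295_at had the largest tissue difference of the members. Its log2 level was 9.04, 8.61, 9.03 and 9.52 in WT muscle, against 7.95, 7.04, 6.57 and 6.44 in WT brain, a log2 difference of 2.05 ± 0.32 (SE, adjusted p = 2.45e-04). In PWS-IC del mice it was 9.07, 8.72 and 8.22 in muscle, against 6.59, 6.84 and 6.35 in brain, a log2 difference of 2.07 ± 0.22 (SE, adjusted p = 3.91e-05). Of the 2 brain arrays with the highest skeletal muscle marker sums, WT replicate 1 had the highest brain level and WT replicate 3 one within the range of the other brain arrays. Without WT brain replicates 1 and 3 the WT difference was 2.31. The other 5 Nrip1 probe sets lay between -0.39 and 0.09 in WT mice, and 2 of them were called lower as deposited but turned positive under quantile normalization and median centring.

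Ppargc1a was lower in muscle on all 5 probe sets as deposited, and this direction did not hold across scalings. In WT mice its differences ran from -0.67 to -0.23, with 1456395_at at -0.67 ± 0.12 (adjusted p = 6.13e-04), and all 5 turned positive after quantile normalization and after median centring, where 1456395_at was at 0.05 and 0.00. In PWS-IC del mice they ran from -0.99 to -0.54, and 1456395_at was at -0.99 ± 0.16 as deposited (adjusted p = 4.34e-04), at -0.17 after quantile normalization and at -0.35 after median centring. Pprc1 was at -0.26 ± 0.10 in WT mice (adjusted p = 0.0378) and at 0.56 and 0.42 after quantile normalization and median centring. Ppargc1b was at 0.19 ± 0.19 in WT mice (adjusted p = 0.396) and at -0.20 ± 0.17 in PWS-IC del mice (adjusted p = 0.319), and both came out positive under the other scalings. Tfam 1448224_at was at 0.17 ± 0.11 in WT mice (adjusted p = 0.191) and at -0.11 ± 0.10 in PWS-IC del mice (adjusted p = 0.35, and 0.66 and 0.52 under quantile normalization and median centring).

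Esrrg 1455267_at was lower in muscle than in brain in both genotypes. As its muscle arrays are those that chose it, the values are given without p. In WT mice the muscle minus brain difference was -0.94 ± 0.16 (SE), which is -0.42 relative to the median of all probe sets, and it was -0.14 after quantile normalization and -0.27 after median centring. In PWS-IC del mice it was -2.16 ± 0.22 (SE), which is -1.66 relative to that median, and it was -1.32 and -1.52 under quantile normalization and median centring. No other member probe set lay as low in PWS-IC del mice under any of the 3 scalings, while in WT mice Nrf1 1445914_at lay lower under each of them. That probe set was at -1.10 ± 0.27 in WT mice (SE, adjusted p = 0.00437), at -0.46 after quantile normalization and at -0.42 after median centring. It was at -0.64 without WT brain replicates 1 and 2 and at -0.78 without replicates 1 and 3. Its difference in PWS-IC del mice was -0.60 ± 0.13 (adjusted p = 0.00313), and there it was near 0 under the other scalings, at -0.01 and 0.03. The other Esrrg probe sets lay above the median of all probe sets where tested, at 0.52 for 1421747_at and 1.12 for 1457896_at in WT mice and 0.27 for 1421747_at in PWS-IC del mice.

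**Figure D5:**
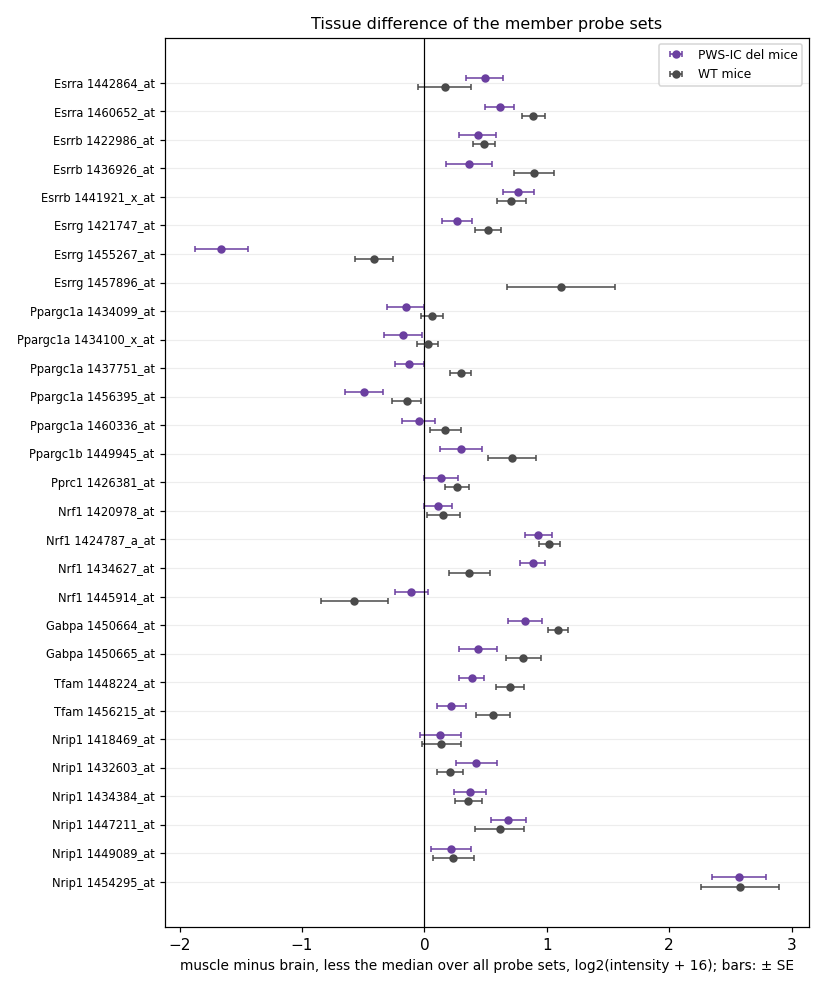
Muscle minus brain log2 difference of each member probe set less the median over all probe sets (-0.50 in PWS-IC del mice and -0.53 in WT mice), with bars of ± SE. Most members lie right of 0, which is the median of all probe sets; as deposited, without taking off that median, 9 member probe sets in PWS-IC del mice and 11 in WT mice were called lower in muscle, and most of these flip or lose the call under the other scalings.

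The genes whose profile over the 14 arrays was nearest to that of Esrrg were found by the root mean square distance between log2 profiles centred on each tissue, over 14130 genes tested in both tissues. They were As3mt, an arsenic methyltransferase (0.180), Fads6, of the fatty acid desaturase family (0.183), Ptger4, a prostaglandin E receptor (0.192), Lrrcc1, a centrosomal protein (0.210), and Hcrtr1, an orexin receptor (0.213). The median distance of all genes to Esrrg was 0.436. Their muscle genotype differences ran from -0.83 for Fads6 to -0.57 for Lrrcc1. Negative values there follow from the choice, as nearness to Esrrg was measured on the same muscle arrays. Their brain genotype differences ran from -0.10 for Fads6 to 0.31 for As3mt. For Ppargc1a the nearest were Svil, an actin-binding protein (0.094), Colec11, a collectin (0.109), Fmo2, a flavin monooxygenase (0.113), Zfp939, a zinc-finger gene (0.116), and Tmem25 (0.118), against a median of 0.257. A small distance describes these arrays alone, which share their depth, scaling and cell makeup.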

How the data were processed

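Total RNA of 14 samples, extracted with Trizol and labelled with biotin per the labels' protocols, was hybridised to 1-colour arrays. The authors deposited 1 linear intensity per probe set and array; PLIER and Affymetrix Expression Console are named per the submitters' processing notes. How the background was corrected and how arrays were normalised to each other is not given in the sources used here, and the number of arrays limits the precision.

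Groups came from the sample titles, which call the arrays biological replicas; 0 pairs of arrays held identical values. The labels do not say that they are separate mice, so p-values measure the spread between these samples. Genes were named by GEO's annotation of the platform, whose symbols may be outdated, and 34945 probe sets had 1 symbol. Values were taken as log2(intensity + 16), which understates the change of dim probe sets. Of 45101 probe sets, 64 controls were left out, and those below the 0.25 quantile of mean value in the arrays fitted were not tested, leaving 33778. Each comparison was fitted with lmFit and eBayes of limma 3.58.1 (R 4.3.3), with 2-sided p-values adjusted by Benjamini-Hochberg. The fits were tested on simulated data.

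The members, gene lists and markers were chosen with earlier results of these data known. Named genes were all members and, per list, up to 3 with the largest difference in muscle and up to 3 with the smallest p in brain, plus the 5 nearest genes to Esrrg and to Ppargc1a. Alternatives covered the pseudocount, scaling between arrays, the filter, 1 probe set per gene, an intensity trend, array weights, the replicate number, the threshold and leaving out arrays.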

Additional observations from a re-analysis of the deposited data

Results flagged for a closer look

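A check for samples far from the others was run on 58 sets of 4 WT arrays, 1 for each of the 29 member probe sets in each tissue, and 3 were picked out, where chance gives about 1 in 20. Esrrg 1421747_at was at 6.575 in WT muscle replicate 4, against 6.461 to 6.475 in the other WT muscle arrays. Esrrb 1422986_at was at 6.159 in WT muscle replicate 2, against 6.185 to 6.188 in the others, a gap that is small on the log2 scale. Nrf1 1420978_at was at 6.311 in WT brain replicate 4, against 6.708 to 6.782 in the others.

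For 2 of the 29 member probe sets all mutant arrays moved opposite ways in the tissues relative to the WT mean. This rule leaves out the spread of the WT arrays, and its share over all probe sets was not counted. Nrf1 1434627_at had a log2 difference of -0.404 in brain and 0.143 in muscle, which are -0.548 apart (brain minus muscle). The brain difference was -0.20 without WT brain replicates 1 and 2 and -0.21 without replicates 1 and 3. Tfam 1456215_at had 0.152 in brain and -0.162 in muscle, which are 0.314 apart. Its brain difference was -0.06 without WT brain replicates 1 and 2 and 0.07 without replicates 1 and 3. The groups overlapped in brain for Tfam 1456215_at and in muscle for Nrf1 1434627_at. The difference between the tissues was not tested in either case.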

How the results depend on the processing

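The 0 member calls in brain held under all 20 alternatives run, and in muscle 176 of 180 recomputed differences of the members' brightest probe sets stayed within 1 SD of the value given, the other 4 being those of Tfam 1448224_at between -0.067 and 0.0047. In muscle the 2 called member probe sets, both of Esrrg, became 1 with a pseudocount of 1 or 64, quantile normalization, median centring, a filter at the 0.5 quantile or 1 probe set per gene. They became 0 with no filter, 6 with array weights (2998 over all probe sets), and 0 to 2 when an array was left out. Over all probe sets the 48 muscle calls were 29 with no filter, 95 with an intensity trend, 16 with 1 probe set per gene, 136 at a threshold of 0.1 and 16 to 68 with an array left out; the 24 brain calls were 9 with 1 probe set per gene. With the replicate number as a block (replicate block), 0 member probe sets were called in muscle and 0 in brain, with 12 and 11 over all probe sets; the correlation of same-numbered arrays was 0.061, 0.42 and 0.024 in muscle and -0.008, -0.24 and -0.38 in brain, not every array was nearest to its own number, and the samples share only a number. In WT tissue the 15 calls became 6 with 1 probe set per gene. The block there ended the calls of Ppargc1a 1437751_at and 1460336_at, Pprc1 1426381_at and Nrip1 1418469_at, and it added Esrrb 1436926_at. In PWS-IC del tissue the 12 became 22 after quantile normalization, 19 after median centring and 4 with 1 probe set per gene. The block there ended no call and added Gabpa 1450664_at and Nrip1 1418469_at. The labels do not say whether muscle and brain arrays of a number are from the same mouse. Signs turned in brain for Ppargc1b (-0.083 after quantile normalization, -0.111 with the block, -0.148 to 0.168 leaving out an array), Pprc1 (-0.016 after quantile normalization, -0.068 without WT 1 and 3, -0.019 to 0.101 leaving out an array), Ppargc1a (0.041 after median centring, 0.124 without WT 1 and 2, 0.026 without WT 1 and 3, -0.201 to 0.088 leaving out an array) and Nrip1 (0.119 without WT 1 and 2). In tissue comparisons they turned, after quantile normalization and median centring, for Ppargc1a (0.053 and 0.0049), Pprc1 (0.560 and 0.417) and Nrip1 (0.374 and 0.386) in WT mice, and for Ppargc1b (0.576 and 0.438, with 0.037 under array weights), Pprc1 (0.506 and 0.272), Tfam (0.658 and 0.522) and Nrip1 (0.469 and 0.355) in PWS-IC del mice. These 2 scalings move the median of all probe sets to 0.15 and 0.15 in WT mice and 0.16 and 0.14 in PWS-IC del mice. The cause of the other changes was not tested.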

Other observations

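Some arrays were at the extremes of the members more often than others. PWS-IC del brain replicate 2, which carried the cerebellar markers, was the highest of the 7 brain arrays in 13 of 29 member probe sets and the lowest in 5. WT brain replicate 1, which carried skeletal muscle markers, was the highest in 6 and the lowest in 6. PWS-IC del muscle replicate 3 was the lowest of the 7 muscle arrays in 11 of 29 and the highest in 2, and PWS-IC del muscle replicate 1 was the highest in 8 and the lowest in 6.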
